A study of Mus musculus with 10 samples.

Results

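The genes described here encode proteins of synaptic vesicles and of the machinery for their fusion: Syt1, Snap25, Vamp2, Stx1a, Nsf, Syp, Syn2, Cplx1 and Cplx2. They were taken as every probe set (the short probes that together report on 1 transcript) that the platform annotation assigned to only one of these 9 genes. All 9 genes had a probe set and Vamp2 had a pair, which gave 10 of the 12488 probe sets in the deposited table and 9 of its 8251 named genes. Hippocampal total RNA came from male C57BL/6 mice aged 30 months, with 1 mouse per Affymetrix array, 5 mice fed a control diet and 5 on a long-term calorie restricted diet. The labels give no allele, transgene or drug for either diet, and the sources used here do not say how strong or how long the restriction was. All values below are log2 of the deposited array intensity, and the mice are named by diet and replicate number.

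Neurotransmitter release rests on the SNARE proteins. Vamp2 on the vesicle and Stx1a and Snap25 on the plasma membrane zip into a bundle that pulls both membranes together; Syt1 senses calcium and triggers fusion, complexins (Cplx1, Cplx2) bind and clamp the assembled bundle, and the ATPase Nsf takes spent bundles apart. Syp (synaptophysin) is an abundant membrane protein of the vesicle, and Syn2 (synapsin II) tethers vesicles in a reserve pool. In the hippocampus these transcripts come mainly from neurons. In tissue RNA, fewer neurons and less transcript per neuron cannot be told apart.

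The arrays differed in RNA quality, and the members' values have to be read beside it. The 3′ over 5′ score, the log2 ratio of 3′ to 5′ control probe sets averaged over Gapdh and Actb, rises when RNA is broken or incompletely copied. It was 5.20 and 6.11 in calorie restricted mice 3 and 5, 0.79, 0.78 and 1.52 in calorie restricted mice 1, 2 and 4, and -0.12 to 0.45 in control mice. The diets did not overlap in this score (2.88 ± 2.57 against 0.16 ± 0.24, SD, n = 5 each; exact two-sided permutation p = 0.00794, the smallest that 252 splits allow here). They did not overlap in the spike-in signal either, at 13.05 ± 0.47 against 11.12 ± 0.56 (exact two-sided permutation p = 0.00794; both adjusted p = 0.00794 over the pair). Correlation of log2 signals ran from 0.901 to 0.937 among control arrays and from 0.826 to 0.904 among calorie restricted arrays. Of 10 tested neuron markers Thy1 rose and Nefl and Map2 fell. Without calorie restricted mice 3 and 5 Nefl passed and Thy1 and Map2 did not (limma adjusted p = 0.0394, 0.0702 and 0.144). The neuron marker Uchl1 also passed in that fit. It was higher in calorie restricted mice, at 0.73, where Nefl was lower, at -0.87. The Map2 mean in calorie restricted mice, 5.90, lay under 6.85, the lowest mean of any tested probe set. The summed intensity of the list, in which the brightest markers weigh most, was 45129 to 54323 in control and 57963 to 68662 in calorie restricted mice. The same sum over 9 markers of hippocampal pyramidal and granule neurons was 7493 to 11246 and 6971 to 9767; of these markers 0 rose and 1 fell, the pyramidal neuron transcription factor Neurod6 at -1.26 ± 0.34 (SE). Of the markers of other cells, 1 rose and 3 fell among 9 of astrocytes, and 0 rose in each of the other lists, with 3 of 7 for oligodendrocytes, 2 of 9 for microglia, 2 of 5 for choroid plexus and ependyma and 1 of 6 for endothelium and pericytes falling; their part in the members' values was not tested. Among 5695 genes tested in the same way, each by its brightest probe set, 4.09% rose and 6.44% fell.

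In calorie restricted mice, Syt1 was the member whose transcript passed the test, and it fell. Of the 10 member probe sets, all bright enough to be tested, 0 rose, 1 fell and 9 did not pass at a limma adjusted p under 0.05 (3 at an unadjusted p under 0.05, against 31.6% of all probe sets). Over all 7453 tested probe sets 11.8% passed, 4.11% higher and 7.74% lower, so the members' share was close to the background. Their median change was -0.59, against -0.15 over all tested probe sets; each change relative to that median is therefore higher than the value printed, by the size of the median. The SD over calorie restricted arrays was more than 2 times that over control arrays in 7 of 10 member probe sets, against 39.6% of all tested ones, and the median ratio was 4.30 against 1.65.

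The low values lay mostly on the same arrays. On calorie restricted mice 3 and 5 together, 9 of 10 member probe sets, every one but that of Snap25, were below the lowest control mouse, where 30.4% of all tested probe sets were. By brightest probe set this held for 71.4% of oligodendrocyte, 55.6% of microglial, 40% of choroid plexus and ependyma and 33.3% of astrocyte markers. It held for 30% of neuron, 22.2% of pyramidal and granule neuron and 16.7% of endothelium and pericyte markers. In 5 of the member probe sets, both for Vamp2 and those for Stx1a, Nsf and Syp, mice 3 and 5 were below every control mouse while mice 1, 2 and 4 were not, against 7.81% of all tested probe sets. The median difference from the control mean over the 10 probe sets was -1.65 in mouse 3 and -2.14 in mouse 5, against -0.098 and -0.25 over all tested probe sets. In mice 1, 2 and 4 it was 0.48, 0.41 and -0.17, against -0.078, -0.068 and -0.095. On mouse 1, 1 of 10 member probe sets was below the lowest control mouse, against 30% of all tested ones. On mouse 2 it was 1 of 10 against 30.1%, on mouse 4 it was 4 of 10 against 33.5%, and on mice 3 and 5 it was 9 of 10 each against 36.6% and 44.4%. Above the highest control mouse were 7 of 10 on mouse 1 and 6 of 10 on mouse 2, against 19.5% and 21.4%. On mice 3, 4 and 5 the counts above were 0, 2 and 1 of 10, against 27%, 21.7% and 30.1%. On mice 1 and 2 together 6 of 10 were above, against 12.5%.

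**Figure D1:**
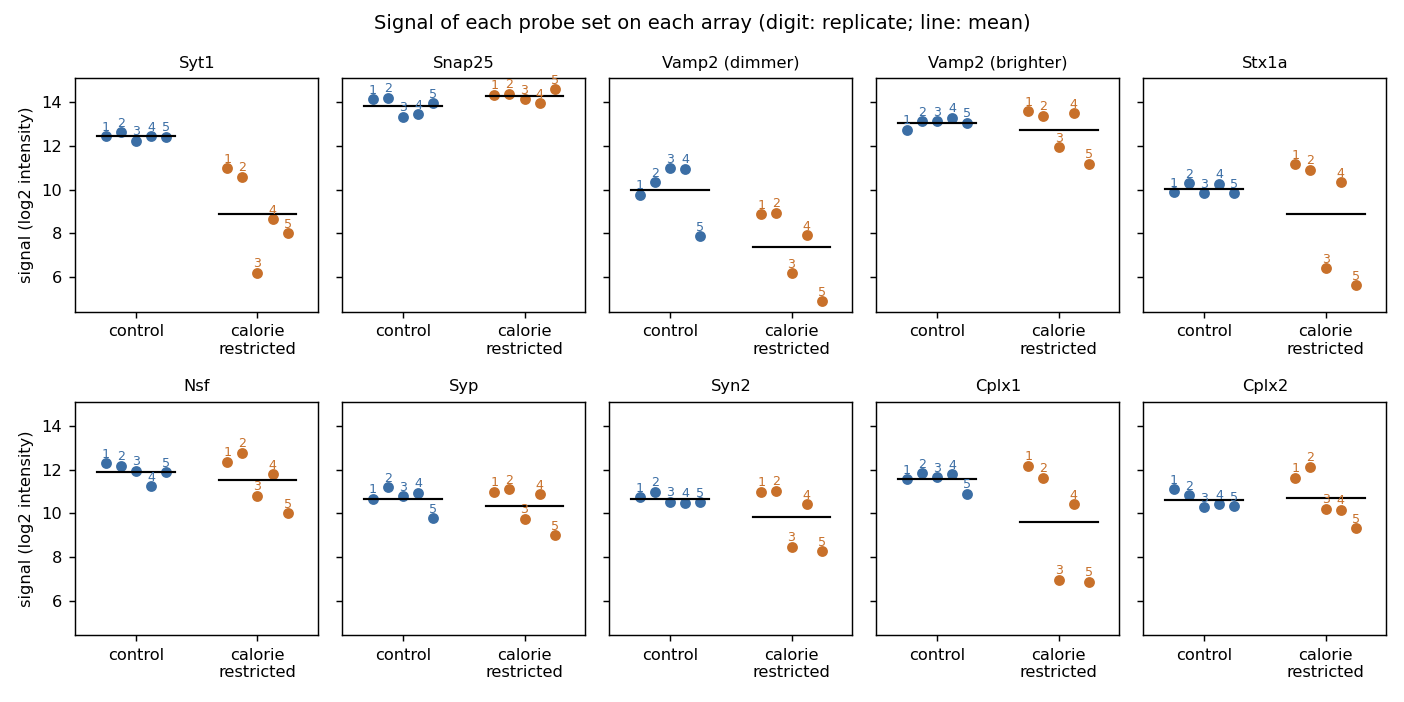
Signal of the 10 probe sets (vertical axis, log2 intensity) on the 5 control (blue) and 5 calorie restricted (orange) arrays; each point is 1 mouse, its digit is the replicate number and the black line is the mean of the diet. Syt1 separates the diets completely, Snap25 stays between 13.33 and 14.61, and for most other genes calorie restricted mice 3 and 5 sit below the rest.

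**Figure D2:**
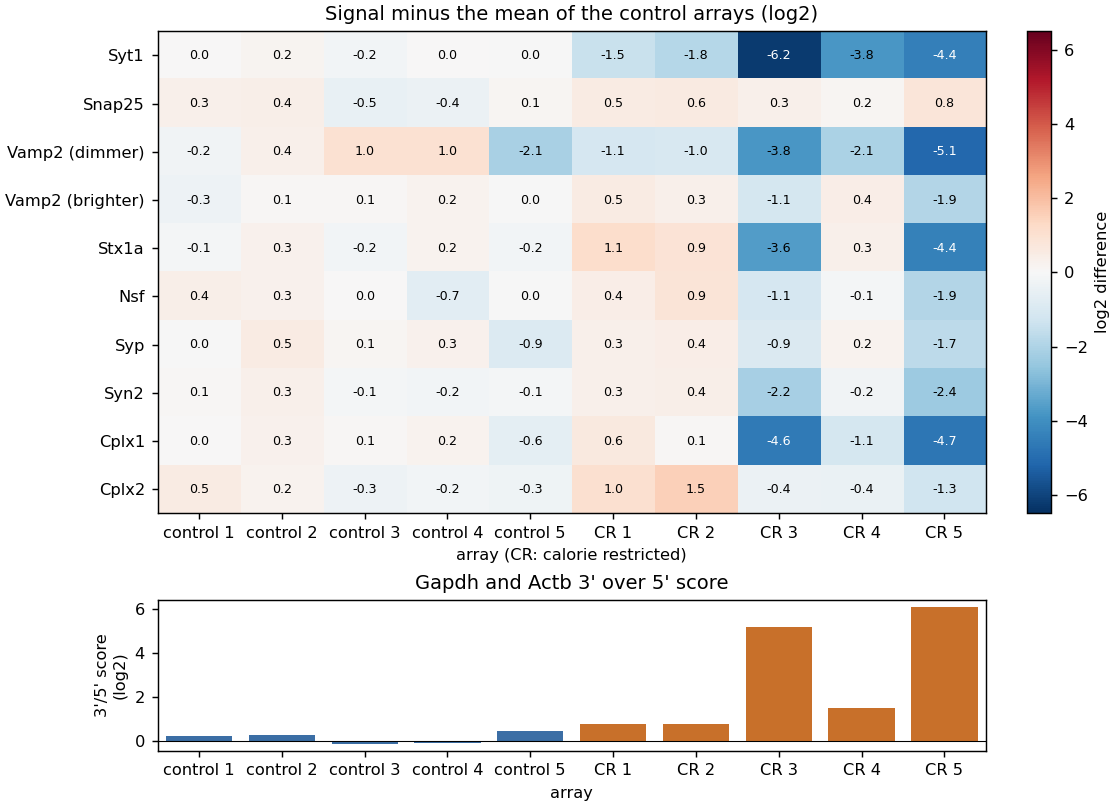
Upper panel: signal minus the mean of the control arrays for each probe set (rows) and array (columns, CR meaning calorie restricted), in log2 units by colour and printed in each cell. Lower panel: the 3′ over 5′ score of the same arrays as bars; the columns of mice 3 and 5, with scores of 5.20 and 6.11, hold most of the dark blue cells, while the Syt1 row is blue in all 5 calorie restricted mice.

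The sequences just upstream of the transcript start are shown for 3 members: Syt1, the one that passed, and Stx1a and Cplx1, whose signals were both far below control on mice 3 and 5 and above the control mean on mice 1 and 2. They are the 250 bases before a RefSeq start site on GRCm38.p6, printed 5′ to 3′ on the strand of the gene. Capitals mark the GC box GGGCGG, to which Sp1 family factors bind, and the CCAAT box, both searched on both strands.
Syt1 (chr10:109010976-109011225, minus strand): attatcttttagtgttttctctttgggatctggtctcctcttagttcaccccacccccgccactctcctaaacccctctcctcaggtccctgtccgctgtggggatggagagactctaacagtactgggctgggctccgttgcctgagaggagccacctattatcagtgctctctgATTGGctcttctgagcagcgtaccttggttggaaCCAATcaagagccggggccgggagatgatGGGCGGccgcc
Stx1a (chr5:135023232-135023481, plus strand): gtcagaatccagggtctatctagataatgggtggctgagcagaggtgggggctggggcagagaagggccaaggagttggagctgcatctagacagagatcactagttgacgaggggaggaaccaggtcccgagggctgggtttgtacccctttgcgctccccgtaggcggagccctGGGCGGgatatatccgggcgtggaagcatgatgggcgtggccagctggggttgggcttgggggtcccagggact
Cplx1 (chr5:108550028-108550277, minus strand): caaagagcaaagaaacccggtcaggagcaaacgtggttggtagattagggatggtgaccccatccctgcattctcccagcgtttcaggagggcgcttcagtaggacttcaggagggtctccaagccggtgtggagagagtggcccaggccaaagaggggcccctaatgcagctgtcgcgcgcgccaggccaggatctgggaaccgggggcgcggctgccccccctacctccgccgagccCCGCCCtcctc
The Syt1 window holds 1 GC box and 2 CCAAT boxes, and those of Stx1a and Cplx1 hold 1 GC box each and 0 CCAAT boxes. A further RefSeq start of Syt1 has neither in its 250 bases. RefSeq windows were matched for 7 of the 9 members, 9 windows in all; 5 held a GC box and 2 a CCAAT box, against 32.7% and 33.8% of 32851 windows of the same length. The cAMP response element TGACGTCA was in 0 of the 9 and in 1.55% of all windows. These matches describe the letters only.

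Syt1, the calcium sensor for fast release, had signals of 12.45, 12.64, 12.24, 12.44 and 12.42 in control mice 1 to 5. In calorie restricted mice 1 to 5 it had 10.97, 10.60, 6.19, 8.64 and 8.0. All 5 calorie restricted mice lay below all 5 control mice, which 14.3% of all tested probe sets also did in one direction or the other, and control mice varied little. The change was -3.55 ± 0.72 (SE, n = 5 per diet; limma adjusted p = 0.0146), or 11.7-fold lower, and -3.40 relative to the median change. Calorie restricted mice had an SD of 1.96 and control mice one of 0.14, a ratio of 13.8 that 0.362% of all tested probe sets reached. The difference from the control mean was smallest in mouse 1, which was 2.76-fold below it, and largest in mouse 3, which was 75.7-fold below it. At least as low a difference was found in 2.71% of tested probe sets on mouse 1, 2.09% on mouse 2 and 0.188% on mouse 4. On mouse 3 that share was 0.0537% and on mouse 5 it was 0.979%. The signal of mouse 3 lay under 6.85, the lowest mean of any tested probe set, so the size of its difference is uncertain.

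Without calorie restricted mice 3 and 5, Syt1 fell by 2.37 ± 0.41 (SE) on the log2 scale (limma adjusted p = 0.00965, 3 against 5 mice). With the 3′ over 5′ score as a covariate its change was -1.85 ± 0.54 and did not pass (limma adjusted p = 0.0660). With the score and the spike-in signal as covariates it was -3.51 ± 0.95 and did not pass (limma adjusted p = 0.215). With 1 array left out it ran from -4.08 to -2.88 and passed each of the 10 times. Without calorie restricted mouse 4 as well as mice 3 and 5, a setting chosen after the data were seen, it was -1.65 and passed (limma adjusted p = 0.00143).

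Of the SNARE genes, Stx1a (syntaxin 1A, of the plasma membrane) had signals of 9.88, 10.30, 9.83, 10.27 and 9.84 in control mice 1 to 5. In calorie restricted mice 1 to 5 they were 11.16, 10.92, 6.41, 10.33 and 5.61. Calorie restricted mice 1, 2 and 4 lay above every control mouse and mice 3 and 5 far below, with none in between. The SD of calorie restricted arrays was 11.1 times that of control arrays, a ratio that 0.751% of tested probe sets reached. The change over all arrays was -1.14 ± 0.97 (SE; limma adjusted p = 0.438). Mice 3 and 5 were 12.2-fold and 21.3-fold below the control mean, and both signals were under the lowest mean tested. Without these mice Stx1a was higher in calorie restricted mice, by 0.78 ± 0.21, and passed (limma adjusted p = 0.0374). The calorie restricted mice kept, 1, 2 and 4, were those above every control mouse, so the direction in that setting was fixed beforehand. Stx1a also passed, at 1.66 ± 0.22, with the 3′ over 5′ score as a covariate (limma adjusted p = 0.00386). That is more than any calorie restricted mouse lay above the control mean (at most 1.14, in mouse 1). The score was by far the highest on mice 3 and 5, so this fit is not separate from leaving them out. The direction of this gene thus turned with the handling of these arrays. Without mice 3 and 5 and under quantile normalization the change was 0.77, short of the threshold (limma adjusted p = 0.0605).

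Snap25, the SNARE that contributes a pair of helices to the bundle, was the exception to the low signals. Control mice 1 to 5 had 14.14, 14.20, 13.33, 13.46 and 13.97, and calorie restricted mice 1 to 5 had 14.36, 14.39, 14.13, 13.97 and 14.61. The diets overlapped, with mice 1, 2 and 5 of the calorie restricted diet above every control mouse. The change was 0.47 ± 0.21 (SE) and did not pass (limma adjusted p = 0.149). Calorie restricted arrays varied less than control arrays, with an SD of 0.25 against 0.40. The direction depended on the scaling: each array centred on its median gave 0.83 with a limma adjusted p of 0.0407, and quantile normalization gave -0.093 (adjusted p = 0.796).

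The pair of probe sets for Vamp2 (synaptobrevin 2, the SNARE of the vesicle) gave different pictures. The dimmer one had 9.76, 10.33, 10.98, 10.96 and 7.86 in control mice 1 to 5 and 8.87, 8.95, 6.18, 7.92 and 4.90 in calorie restricted mice 1 to 5. Control mouse 5 lay as low as calorie restricted mouse 4, so the diets overlapped, and the change of -2.62 ± 0.80 (SE) just missed the threshold (limma adjusted p = 0.0527). It passed without control mouse 5, at -3.15, and without calorie restricted mouse 1 or mouse 2, at -2.99 and -3.01 (limma adjusted p = 0.0366, 0.0354 and 0.0315). With the 3′ over 5′ score as a covariate it had -0.67 ± 0.58 (limma adjusted p = 0.519), and without calorie restricted mice 3 and 5 it had -1.40 ± 0.60 (limma adjusted p = 0.149). The brighter one had 12.74, 13.13, 13.14, 13.29 and 13.07 in control mice and 13.59, 13.39, 11.94, 13.51 and 11.18 in calorie restricted mice. Here calorie restricted mice 1, 2 and 4 were above every control mouse and mice 3 and 5 below. Its change was -0.35 ± 0.42 (limma adjusted p = 0.586), 0.42 ± 0.15 without mice 3 and 5 (adjusted p = 0.0854) and 0.79 ± 0.19 with the score as a covariate, where it passed (limma adjusted p = 0.0376).

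The difference between the Vamp2 probe sets within each array, brighter minus dimmer, was higher on average in calorie restricted mice over all 10 arrays. It was 2.98, 2.80, 2.16, 2.33 and 5.21 in control mice 1 to 5 and 4.72, 4.44, 5.76, 5.59 and 6.28 in calorie restricted mice 1 to 5. The means were 3.10 ± 1.23 and 5.36 ± 0.76 (SD, n = 5 each; exact two-sided permutation p = 0.0238, a test added after the values were seen). Only control mouse 5 overlapped with the other diet, and it had the highest 3′ over 5′ score of the control mice, 0.45. Calorie restricted mice 3, 4 and 5 had the largest differences between the probe sets and the highest scores of their diet. The part of the score in this difference was not tested. Without calorie restricted mice 3 and 5 the difference between diets was 1.82, with an exact permutation p of 0.0893. The dimmer probe set's signals on calorie restricted mice 3 and 5 lay under 6.85, so the size of the difference there is uncertain. The mean change of both probe sets was -1.48 ± 0.58 (SE; limma adjusted p = 0.111).

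Nsf, the ATPase that takes SNARE bundles apart, had 12.31, 12.17, 11.96, 11.25 and 11.90 in control mice 1 to 5. Calorie restricted mice 1 to 5 had 12.36, 12.77, 10.81, 11.80 and 10.01, so mice 1 and 2 were above and mice 3 and 5 below every control mouse. The change was -0.37 ± 0.45 (SE; limma adjusted p = 0.598) over all arrays and 0.39 ± 0.26 without mice 3 and 5 (adjusted p = 0.336).

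Both complexins were below control on calorie restricted mice 3 and 5. Cplx1 had 11.57, 11.84, 11.64, 11.79 and 10.91 in control mice 1 to 5 and 12.18, 11.62, 6.97, 10.41 and 6.86 in calorie restricted mice 1 to 5. Mice 3 and 5 were 23.9-fold and 25.8-fold below the control mean, mouse 4 was also below every control mouse, and mouse 1 was above them all. The change of -1.94 ± 0.93 (SE) did not pass (limma adjusted p = 0.175), and it was -0.15 ± 0.34 without mice 3 and 5 (adjusted p = 0.806).

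Cplx2, the complexin of many excitatory terminals, had 11.12, 10.83, 10.27, 10.42 and 10.33 in control and 11.64, 12.14, 10.21, 10.17 and 9.31 in calorie restricted mice 1 to 5. Mice 1 and 2 were above every control mouse and mice 3, 4 and 5 below, though mice 3 and 4 by little. Its change was 0.10 ± 0.46 (limma adjusted p = 0.899), and 0.72 ± 0.37 without mice 3 and 5 (adjusted p = 0.219). With mice 1 and 2 as the only calorie restricted mice it was 1.30 and passed (limma adjusted p = 0.0175), a setting chosen after the data were seen. Mice 1 and 2 had the highest Cplx2 signals of their diet, so the direction in that setting was fixed beforehand.

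Among the vesicle proteins, Syp had 10.68, 11.20, 10.79, 10.95 and 9.77 in control mice 1 to 5 and 11.0, 11.11, 9.76, 10.88 and 9.0 in calorie restricted mice 1 to 5. Control mouse 5 nearly matched calorie restricted mouse 3, and only mouse 5 of the calorie restricted diet stood clearly lower. The change was -0.33 ± 0.41 (SE; limma adjusted p = 0.604) and 0.32 ± 0.27 without mice 3 and 5 (adjusted p = 0.456).

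Syn2 had 10.73, 10.99, 10.53, 10.49 and 10.51 in control and 10.99, 11.04, 8.48, 10.43 and 8.27 in calorie restricted mice 1 to 5. Mice 3 and 5 were 4.50-fold and 5.19-fold below the control mean, and the other calorie restricted mice were at or close to the control range. The change was -0.81 ± 0.51 (SE; limma adjusted p = 0.298) and 0.17 ± 0.18 without mice 3 and 5 (adjusted p = 0.568).

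Leaving out calorie restricted mice 3 and 5 turned the median change of the 10 probe sets from -0.59 to 0.36, while that of all tested probe sets went from -0.15 to -0.10. In that fit the change was above 0 for 7 of the 10 and below 0 for 3, and 2 passed, Stx1a higher and Syt1 lower, against 10.5% of all probe sets, 3.98% higher and 6.52% lower. With the 3′ over 5′ score as a covariate the change was above 0 for 8 and below 0 for 2. Of the members 2 passed, Stx1a and Vamp2 by its brighter probe set, both higher. Of all probe sets 4.47% passed, 2.08% higher and 2.39% lower. The score was by far the highest on mice 3 and 5, so that fit is not separate from leaving them out. The score alone accounts for 0.41 of the variance of diet (R2). Under quantile normalization 1 passed, Syt1, against 8.09%. With the score and the spike-in signal as covariates limma called 0 members, and 4 had an unadjusted p under 0.05; 0% of all tested probe sets passed and 12.2% had such a p. The covariates together account for 0.85 of the variance of diet (R2), so little is left in that fit to tell them apart.

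**Figure D3:**
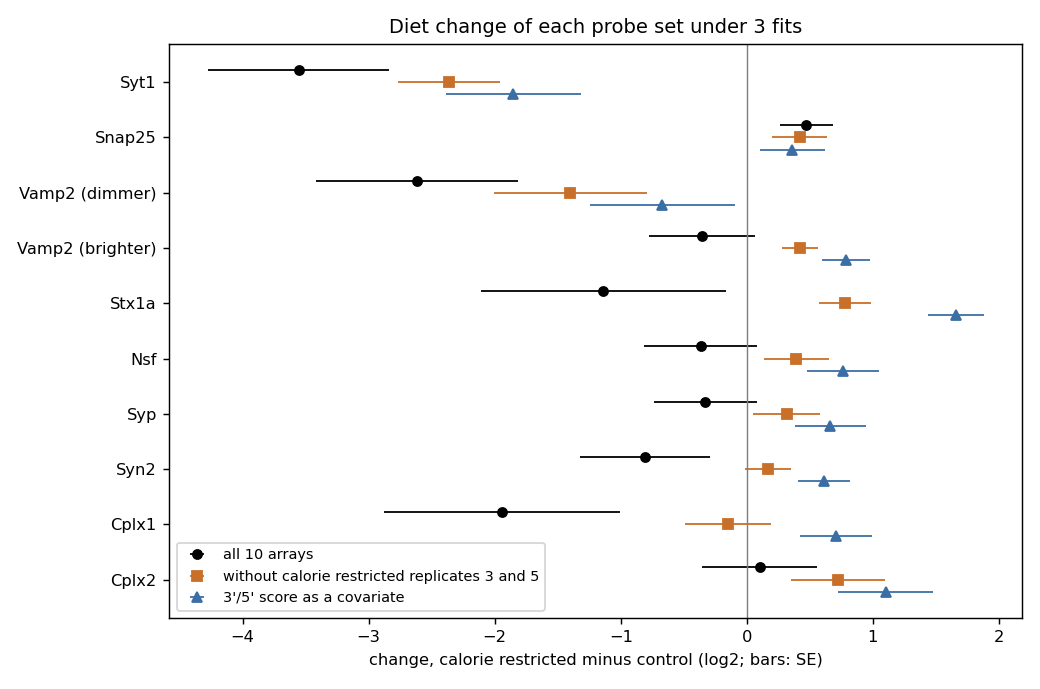
Change of each probe set (horizontal axis, calorie restricted minus control, log2; bars are SE) from all 10 arrays (black), without calorie restricted mice 3 and 5 (orange) and with the 3′ over 5′ score as a covariate (blue). Syt1 stays below 0 in each, from -3.55 to -1.85, Snap25 stays above 0 in these 3 fits and falls below it under quantile normalization, and Stx1a goes from -1.14 to 1.66.

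Other genes of the vesicle cycle did not move one way. Of 71 genes listed, 40 had a probe set with 1 symbol and 34 were tested, each by its brightest probe set: 3 rose, 3 fell and 28 did not pass. These are 8.82% each, against 4.09% higher and 6.44% lower among 5695 genes tested in the same way, and the median change was -0.11 against -0.12. On calorie restricted mice 3 and 5 together, 10 of the 34, or 29.4%, were below the lowest control mouse, a share close to the 30.4% of all tested probe sets. No test compared these genes with the members.

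The 3 that rose included Dnm1, the GTPase that pinches off vesicles during endocytosis, at 1.25 ± 0.24 (SE; limma adjusted p = 0.0116). Its signals were 13.65 to 14.44 in control and 14.92 to 15.99 in calorie restricted mice, without overlap, and mice 3 and 5 were the highest. Slc32a1, which loads GABA into vesicles, rose by 0.90 ± 0.20 (limma adjusted p = 0.0191), with 10.92 to 11.43 in control and 11.46 to 12.51 in calorie restricted mice. Rab3b, a small GTPase of secretory vesicles, rose by 1.43 ± 0.40 (limma adjusted p = 0.0388), and its diets overlapped. Its signals in control mice 2, 3 and 4 (6.52, 6.81 and 6.41) lay under 6.85, so the size of its rise is uncertain. Of the 6 tested genes of vesicle cargo and membrane proteins, 2 rose, 1 fell and 3 did not pass; Scamp1 had 0.76 ± 0.23, Syngr1 -1.03 ± 0.40 and Rab3a -0.48 ± 0.43.

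The 3 that fell were Doc2b, a calcium sensor with C2 domains like those of Syt1, Sh3gl2 (endophilin A1, of endocytosis) and Dnajc5 (cysteine string protein, a vesicle chaperone whose clients include Snap25). Doc2b had 8.40 to 9.27 in control and 5.84 to 8.12 in calorie restricted mice, lowest in mouse 4, a change of -1.99 ± 0.36 (limma adjusted p = 0.0101) that was -1.92 without mice 3 and 5. Its signals on calorie restricted mice 3, 4 and 5 lay under 6.85, so the size is uncertain. Sh3gl2 changed by -1.56 ± 0.39 and Dnajc5 by -1.56 ± 0.45 (limma adjusted p = 0.0281 and 0.0428). On calorie restricted mouse 5 Sh3gl2 had 6.42, also under 6.85. Without mice 3 and 5, Doc2b and Sh3gl2 passed (adjusted p = 0.0197 and 0.0224) and Dnajc5 did not (adjusted p = 0.133).

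Of the 9 tested SNARE genes and regulators, 0 rose, 1 fell and 8 did not pass, among them the Nsf partners Napa at -0.086 ± 0.33 and Napb at -0.070 ± 0.21, and Vamp1, the close relative of Vamp2, at -1.91 ± 0.67 (limma adjusted p = 0.0795). The Vamp1 signals on calorie restricted mice 3 and 5 lay under 6.85. Of the 6 other synaptotagmins 0 rose, 0 fell and 6 did not pass; Syt11 had -1.57 ± 0.57 (limma adjusted p = 0.0866), Syt2 0.40 ± 0.18 and Syt4 -0.45 ± 0.25. Of 13 endocytosis genes, 1 rose, 1 fell and 11 did not pass. Without calorie restricted mice 3 and 5, 5 of the 34 rose, adding Ap2a2 at 1.11 and Bin1 at 0.48 (limma adjusted p = 0.0176 and 0.0423), and 2 fell, against 4.04% higher and 5.6% lower among all genes. Another probe set of Ap2a2 and another of Bin1 had the opposite direction to the one used.

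**Figure D4:**
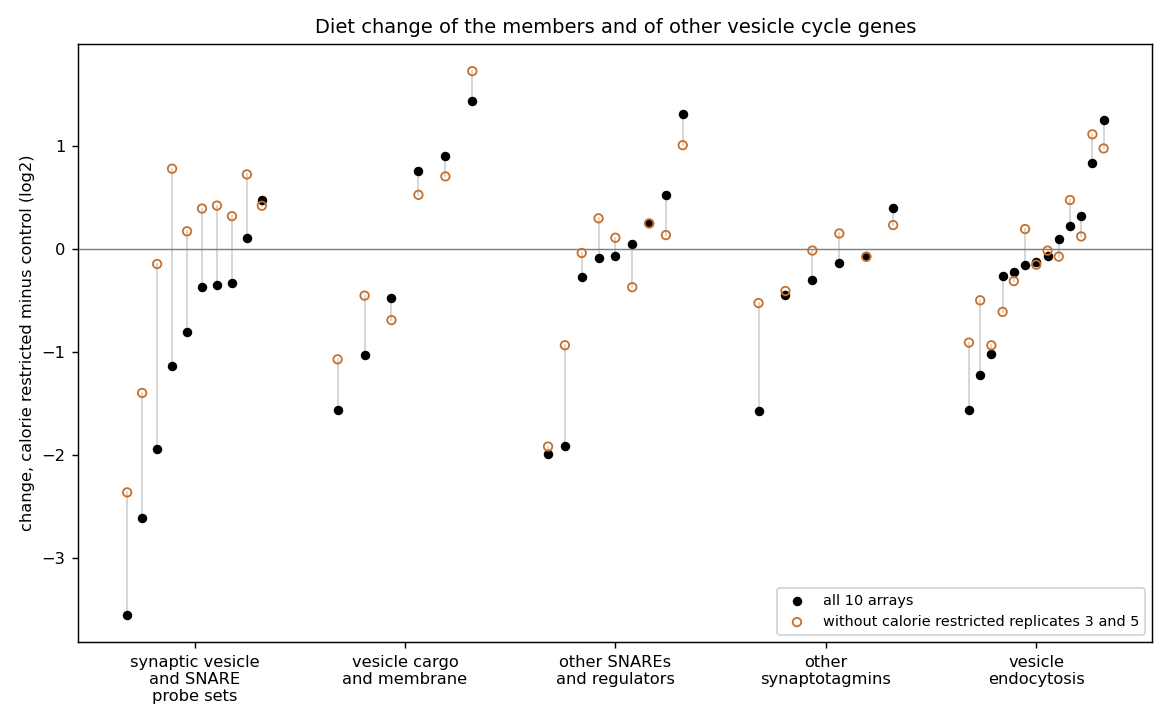
Change (vertical axis, calorie restricted minus control, log2) of the 10 member probe sets and of 34 other vesicle cycle genes in 4 groups; filled black points are all 10 arrays, open orange circles are without calorie restricted mice 3 and 5, and a grey line joins the values of a probe set. Among the members the orange circles lie above the black points for 9 of 10, all but Snap25.

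The genes whose pattern over the 10 arrays was most like each member were sought by the root mean square difference of log2 signals, after taking off each gene's control mean. For Syt1 the nearest of 5695 genes were Rasgrp1, an activator of Ras, at 0.78, Sorl1, a sorting receptor, at 0.79 and Pdia6, a disulfide isomerase, at 0.83, where the median over all genes was 2.76. For Stx1a they were Twf2, which binds actin, at 0.36, Aamp at 0.41 and Rabac1 at 0.48, against a median of 1.89. For Cplx1 they were Cenpb at 0.35, Ensa at 0.43 and Tnfaip1 at 0.47, against 2.12. These values share arrays and their differences in quality, and they carry no test.

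For the other members the median over all genes was 0.69 to 1.10. The nearest genes of Vamp2, by its brighter probe set, were Pcyt2, Ephb6 and Mapk8ip3 at 0.13 to 0.14, and those of Snap25 were Snx14, Rgs8 and Rnf20 at 0.18 to 0.19. Nsf was nearest to Pafah1b3 at 0.25, Syp to Slc12a4 at 0.20, Syn2 to Bnip1 at 0.23 and Cplx2 to Rnaseh2a at 0.41. No member was among the 3 nearest genes of another. Between members the closest pair was Vamp2 and Syp at 0.37, and Stx1a and Cplx1 stood at 0.66.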

How the data were processed

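The deposited table holds one intensity per probe set and array on a linear scale, which the authors computed with MAS5, per the submitters' processing notes; the sources used here name neither its version nor its settings. The mean without the lowest and highest 2% was about 500 on each array (500.2 to 500.4). Raw images and detection calls were not analysed here, and the number of arrays limits the precision. Intensities under 1 (41 of 124880) were set to 1 and log2 was taken. After leaving out 66 control probe sets, those with a mean below the 40th percentile were not tested, which left 7453. Names came from the platform annotation, updated through RefSeq by gene number (10817 of 10833 with 1 symbol). The diet comparison used limma 3.58.1 in R 4.3.3 (lmFit, eBayes with a trend), with Benjamini-Hochberg adjustment over all tested probe sets. Changes are calorie restricted minus control, and the tests are against 0. Single array measures used an exact permutation test. The fit was tested on simulated data with independent arrays and the same SD in both diets. That test does not cover the unequal SDs and shared array differences seen here.

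The members, gene lists and settings were chosen with earlier results of these data known. Named were all members, list genes past the threshold (up to 8 a list), markers with the smallest p, and the 3 genes most like each member; other list genes given as values were picked after their values were seen. The labels call the samples biological replicates. They do not say that equal numbers pair mice, so numbers were not taken as pairs. Over all tested probe sets, same-numbered mice of the diets did not deviate together (correlations of -0.076 to 0.17), which does not settle pairing. With the replicate number as a block the SE of each member probe set was smaller, for the dimmer Vamp2 one 0.50 against 0.80. Where RNA quality is named as a covariate, it is the 3′ over 5′ score; the spike-in signal is the mean over 9 control probe sets.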

Additional observations from a re-analysis of the deposited data

Results flagged for a closer look

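Cplx1 in control mouse 5 had a signal of 10.91, apart from the other control mice at 11.57 to 11.84; the gap to the nearest was 0.717 of the range of the 5 values. About 1 in 20 groups of values is set apart in this way by chance, and 1 of the 24 groups examined was. Without control mouse 5 the change of Cplx1 was -2.10 (limma adjusted p = 0.201), against -1.94 with it.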

How the results depend on the processing

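The count of member probe sets past the threshold, 1 in the comparison reported, was 2 with arrays centred on their median, with a filter at the 60th percentile, with a floor of 32, with an offset of 16, with the RNA quality score as a covariate, without calorie restricted replicates 3 and 5, with the replicate block and at an adjusted p under 0.10. It was 0 with the quality score and spike-in signal as covariates, 3 without calorie restricted replicates 3, 4 and 5 (added after the data were seen), and 1 to 2 with 1 array left out. Of all tested probe sets, 11.8% passed in the comparison reported and 10.5% without replicates 3 and 5. With the quality score 4.47% passed, and 0% with the spike-in signal added. The share in the other settings is not given here, so those counts cannot be set against a background. With the replicate number as a block, Syt1 kept its fall and the dimmer Vamp2 probe set also passed, at -2.62 (limma adjusted p = 0.0336). The count of other vesicle cycle genes, 6 in the comparison reported, was 2 and 0 with these covariates, 3 without replicates 3, 4 and 5, 3 without replicates 3 and 5 under quantile normalization (also added), 10 at an adjusted p under 0.10, and 2 to 8 with 1 array left out, lowest without control replicates 2 or 3 (2 each); it was 3 without control replicate 4 and 3 without calorie restricted replicate 3. The difference in RNA quality score ran from 1.92 to 3.25 with 1 array left out, and the exact permutation p was 0.0556 to 0.0635 without each of control replicates 1 to 4; that in spike-in signal ran from 1.77 to 2.09.

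Syt1 was lower in calorie restricted mice in every setting run. So was the dimmer Vamp2 probe set, except that adjusting for both the quality score and the spike-in signal left a change of about 0 (-0.00071). The others changed sign as follows; Vamp2 here is the brighter probe set. Quantile normalization gave Snap25 -0.093. Centred arrays gave Vamp2 0.00026 and Syp 0.025, and array weights gave them 0.12 and 0.025. With the quality score as a covariate Vamp2, Stx1a, Nsf, Syp, Syn2 and Cplx1 had 0.79, 1.66, 0.77, 0.66, 0.61 and 0.71. With the spike-in signal added, Snap25, Vamp2, Stx1a, Syp and Cplx2 had -0.80, 1.25, 1.32, 0.64 and -0.80. Without replicates 3 and 5 Vamp2, Stx1a, Nsf, Syp and Syn2 had 0.42, 0.78, 0.39, 0.32 and 0.17, and without replicate 4 as well 0.42, 1.02, 0.65, 0.37 and 0.37, with Cplx1 at 0.35. Without replicates 3 and 5 under quantile normalization Snap25, Vamp2, Stx1a, Nsf, Syp and Syn2 had -0.098, 0.046, 0.77, 0.14, 0.26 and 0.12. With 1 array left out Vamp2 ran from -0.57 to 0.031, Nsf from -0.67 to 0.018, Syp from -0.56 to 0.0084 and Cplx2 from -0.26 to 0.45; the first 3 were above 0 without calorie restricted replicate 5 alone, and Cplx2 was below 0 without replicates 1 or 2 (-0.13 and -0.26). The cause of these turns was not tested beyond the settings themselves. Signals near the lowest mean tested, as in Stx1a, Cplx1 and the dimmer Vamp2 probe set on replicates 3 and 5, limit the size of a change.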
